A study of Mus musculus with 6 samples.

Results

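Rab GTPases are small GTP-binding proteins that give each membrane compartment of the cell its identity. In the GTP-bound form they sit on vesicles and organelles and recruit effectors such as tethers and motors, exchange factors load them with GTP, and GTPase-activating proteins return them to the inactive form. In neurons they are known for steering synaptic vesicles and neuropeptide granules to release sites, for recycling receptors through endosomes, and for carrying cargo to lysosomes. Their transcripts were followed here in the hippocampus of mice that carry a deletion in *Phf21b*, which encodes an epigenetic reader. Members were all genes of the expression table named *Rab* followed by a number and at most 1 letter from a to d, which gave 53 of the 14477 genes. A further 6 *Rab* genes of the annotation (*Rab4b*, *Rab17*, *Rab19*, *Rab25*, *Rab43*, and *Rab44*) were not in the table. Every member had more than 3 reads in each mouse, the lowest being 4 reads.

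RNA-Seq was performed on hippocampal tissue of 3 mice of each genotype, numbered 2, 3, and 6 for Phf21bΔ4/Δ4 and 5, 7, and 8 for Phf21b+/+. All 6 were labelled as baseline with no treatment, and the study kept its young adult mice of both sexes on a C57BL/6J background as littermates; neither the sex nor the age of a single mouse is given in the labels. The Phf21bΔ4/Δ4 line was made by CRISPR/Cas9 with a deletion in exon 4 that is carried in every tissue and shifts the reading frame. It is a knockdown model in which *Phf21b* transcript remains. In the tables used here, *Phf21b* stood at 2.15, 3.57, and 3.87 CPM (read counts scaled to the size of the library) in Phf21bΔ4/Δ4 mice 2, 3, and 6 and at 6.501, 5.23, and 6.47 CPM in Phf21b+/+ mice 5, 7, and 8. The genotypes did not overlap for the targeted gene (log2 fold change -0.96, SE 0.257), although its false discovery rate (FDR) of 0.141 was above the threshold of 0.1. Values below are given in this order of mice.

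Depth was even, with 20495605 to 24881257 reads per mouse on the listed genes. Markers of CA1, CA3, and dentate granule cells were detected in every mouse, as the tissue label implies, but the marker lists also differed between mice. The summed level of 12 medial habenula markers was 7.13 to 11 CPM in Phf21bΔ4/Δ4 mice and 171 to 240 CPM in Phf21b+/+ mice, all 12 passed the thresholds used below, and 4 of them (*Pou4f1*, *Chat*, *Slc18a3*, and *Irx2*) had at most 3 reads in each Phf21bΔ4/Δ4 library. Thalamus markers summed to 44.7 to 143 CPM against 174 to 357 CPM (2 of 6 passed). CA1 markers summed to 988 to 1060 CPM against 406 to 447 CPM (3 of 6 passed) and GABAergic interneuron markers to 920 to 1010 CPM against 620 to 695 CPM (1 of 8 passed). Dentate granule cell markers summed to 278, 262, and 679 CPM in Phf21bΔ4/Δ4 mice and to 843, 705, and 715 CPM in Phf21b+/+ mice, with none of 6 passing, so that Phf21bΔ4/Δ4 mouse 6 lay close to the Phf21b+/+ mice. Choroid plexus markers reached 15500 CPM in Phf21b+/+ mouse 7 and 954 CPM in mouse 8, and were between 22.2 and 79.5 CPM in the other mice. Markers of astrocytes (4520 to 6160 CPM), oligodendrocytes (5780 to 9700 CPM), microglia (300 to 340 CPM), endothelial cells (85.2 to 151 CPM), and CA3 (344 to 598 CPM) overlapped between the genotypes in their sums. Within these lists 1 of 6 astrocyte markers passed (*Aqp4*, lower, FDR 0.0669 by limma) and *Gfap* was also below all Phf21b+/+ mice, while 3 of 5 endothelial markers (*Cldn5*, *Flt1*, and *Ly6c1*) were above all Phf21b+/+ mice without passing. In tissue samples, the amount of neighbouring structures taken with the hippocampus, the number of cells of a type, and the RNA in each cell cannot be told apart.

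None of the 53 *Rab* genes was differentially expressed between the genotypes when an FDR below 0.1 was required together with a fold change of more than 1.3. The count was 0 by limma with Benjamini-Hochberg adjustment over all 14477 genes, in which 1.22% of all genes passed (0.553% higher and 0.663% lower), and 0 by voom on the reads. At an unadjusted p under 0.05, 14 of the 53 (26.4%) passed by either method, against 23.6% of all genes by limma. The total was near the background, but the directions were not evenly divided. Of the 14 genes, 12 were higher in Phf21bΔ4/Δ4 mice (22.6% of the members, against 11.6% of all genes) and 2 were lower (3.77%, against 12% of all genes). The FDR of these 14 genes lay between 0.101 and 0.208. The count was 6 without Phf21bΔ4/Δ4 mouse 2 (11.3% of the members, against 14.4% of all genes), 6 without Phf21b+/+ mouse 7 (11.3%, against 13.2%), and 8 without Phf21b+/+ mouse 8 (15.1%, against 13.9%).

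The values themselves also lay more often above than below those of Phf21b+/+ mice, to an extent that depended on the scaling. In 18 *Rab* genes (34.0%) all 3 Phf21bΔ4/Δ4 mice lay above all 3 Phf21b+/+ mice, against 15.0% of all genes. In 2 (3.77%) they lay below, against 16.0% of all genes. After quantile normalization the counts were 8 (15.1%, against 15.4% of all genes) and 3 (5.66%, against 12.4%), so that the share of higher members was at the background. Without Phf21bΔ4/Δ4 mouse 6 they were 27 (50.9%, against 26.8%) and 8 (15.1%, against 28.5%). The log2 fold change was above 0 in 37 of 53 members (69.8%), against 47.6% of all genes, and its median was 0.095 over the members and -0.019 over all genes, or 0.063 and 0.019 after quantile normalization. Most differences were small, since 33 members had a log2 fold change of less than 0.2 in either direction. Summed over the 53 genes, *Rab* transcripts made up 6179, 6204, and 5386 CPM in Phf21bΔ4/Δ4 mice and 4967, 4534, and 4839 CPM in Phf21b+/+ mice, with means of 5923 ± 465 and 4780 ± 223 CPM (SD, n = 3 each). The plot of all fold changes shows where each gene stood.

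**Figure D1:**
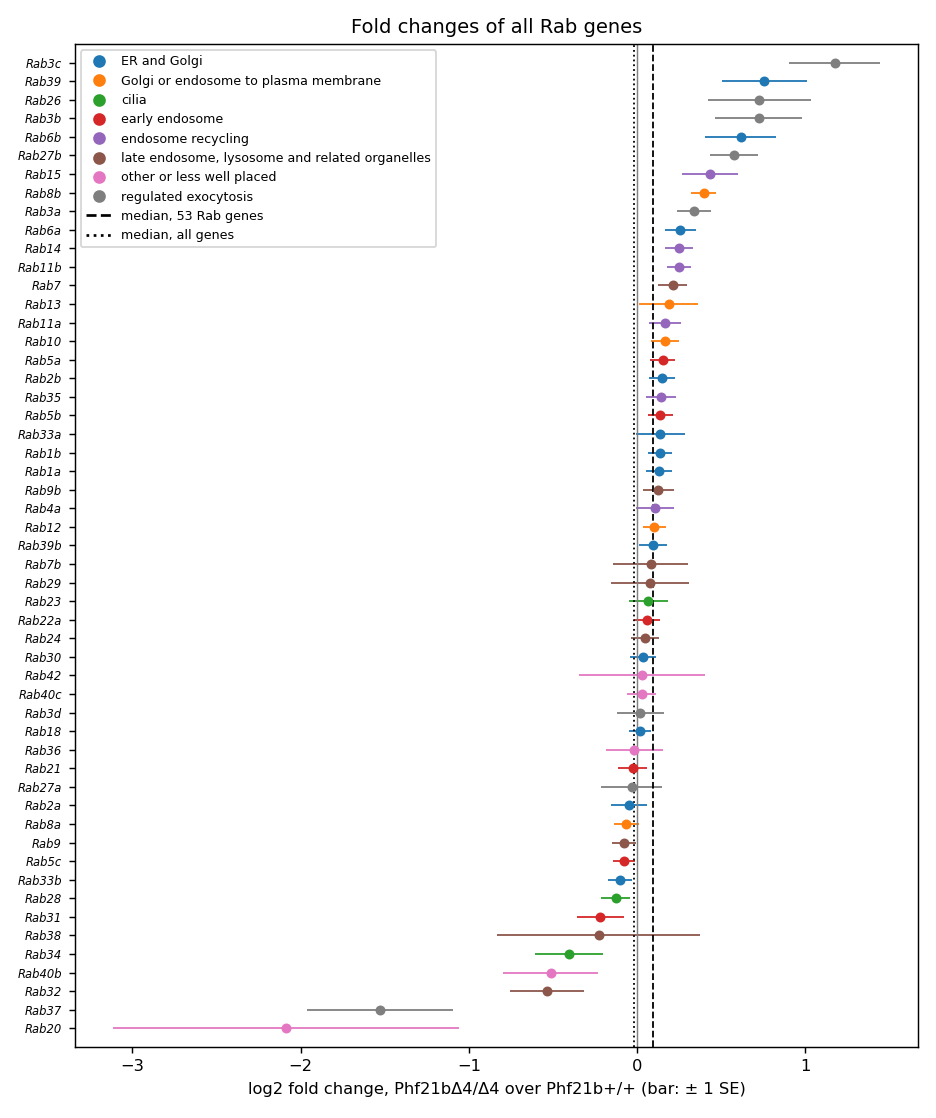
Log2 fold change of each of the 53 *Rab* genes, Phf21bΔ4/Δ4 over Phf21b+/+, with bars of 1 standard error from limma and colours for the role of the protein; the dashed line is the median of the *Rab* genes (0.095) and the dotted line that of all genes (-0.019). The upper end holds *Rab3c*, *Rab39*, *Rab26*, *Rab3b*, and *Rab6b*, and the widest bar belongs to *Rab20* at the lower end.

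Rab proteins of regulated exocytosis, which act on synaptic vesicles and secretory granules, included 4 of the 6 highest log2 fold changes. Of the 8 genes, 4 were higher (50%, against 11.6% of all genes) and 1 was lower (12.5%, against 12%) at an unadjusted p under 0.05. None passed the FDR, and this and the other role groups were drawn up with earlier results of these data known. Their median log2 fold change was 0.46. *Rab3c*, a relative of the synaptic vesicle protein gene *Rab3a*, was measured at 944, 1004, and 505 CPM in Phf21bΔ4/Δ4 mice and at 405, 309.3, and 333 CPM in Phf21b+/+ mice. Phf21bΔ4/Δ4 mice 2 and 3 stood far above the rest, and mouse 6 lay between them and the Phf21b+/+ mice. The log2 fold change of 1.17 (SE 0.27), or 2.26-fold, was the highest of any member, with an FDR of 0.133. The gene lies on the minus strand at chr13:110054187-110280996 of GRCm38.

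*Rab3a*, which encodes the most abundant Rab of synaptic vesicles and a regulator of neurotransmitter release, was at 442, 453, and 403 CPM against 375, 309.8, and 344 CPM. The genotypes did not overlap, and the smallest gap was between Phf21bΔ4/Δ4 mouse 6 and Phf21b+/+ mouse 5. Its log2 fold change was 0.34 (SE 0.10, FDR 0.151), and 0.09 (FDR 0.493) after quantile normalization. *Rab3b*, whose product is known at inhibitory synapses of the hippocampus and in endocrine cells, was nearly level among Phf21b+/+ mice at 28.0, 27.6, and 27.8 CPM and spread widely among Phf21bΔ4/Δ4 mice at 45.4, 68.1, and 31.2 CPM (log2 fold change 0.72, SE 0.259, FDR 0.176), and without Phf21bΔ4/Δ4 mouse 3 the log2 fold change was 0.44. *Rab3d*, a Rab of secretory granules, overlapped at 15.9, 12.1, and 16.2 CPM against 14.7, 13.6, and 14.9 CPM. Its log2 fold change was 0.02 (SE 0.137), and the sign turned when Phf21bΔ4/Δ4 mouse 2 or 6 or Phf21b+/+ mouse 7 was left out.

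*Rab27b*, which acts in the docking of vesicles and granules at the plasma membrane, was at 90.7, 99.0, and 74.5 CPM in Phf21bΔ4/Δ4 mice and at 63.4, 50.1, and 63.3 CPM in Phf21b+/+ mice. All 3 Phf21bΔ4/Δ4 values lay above the Phf21b+/+ range (log2 fold change 0.58, SE 0.142, FDR 0.133). Its paralog *Rab27a* overlapped at 12.2, 8.38, and 8.35 CPM against 10.4, 8.82, and 9.98 CPM (log2 fold change -0.03, SE 0.18), and its sign was positive in 3 of 13 alternative settings and in 3 of the 6 fits without a mouse. *Rab26*, linked to secretory granules and to clusters of synaptic vesicles, was at 29.2 and 23.1 CPM in Phf21bΔ4/Δ4 mice 2 and 3 but at 12.5 CPM in mouse 6, within the Phf21b+/+ range of 10.6 to 13.7 CPM (log2 fold change 0.72, SE 0.306, FDR 0.213, and 0.46 without Phf21bΔ4/Δ4 mouse 2). Of the *Rab26* exons, 9.4% overlap *Traf7* on the same strand.

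*Rab37*, described on secretory granules, was the member of this group with a lower value. It was at 1.48, 1.57, and 1.91 CPM in Phf21bΔ4/Δ4 mice and at 8.92, 4.52, and 2.65 CPM in Phf21b+/+ mice, from 33 to 44 and from 59 to 188 reads. The log2 fold change was -1.53 (SE 0.432, FDR 0.147), and the Phf21b+/+ mice differed more among themselves than the Phf21bΔ4/Δ4 mice did. In the Phf21b+/+ mice the summed thalamus markers ran in the same order, at 357, 306, and 174 CPM. They were at 44.7, 102, and 143 CPM in the Phf21bΔ4/Δ4 mice. Markers of medial habenula (171, 178, and 240 CPM) and oligodendrocytes (6980, 8890, and 9700 CPM) ran in the opposite order in the Phf21b+/+ mice. The other marker lists ran in neither order there. The part of the thalamus markers in this result was not tested.

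**Figure D2:**
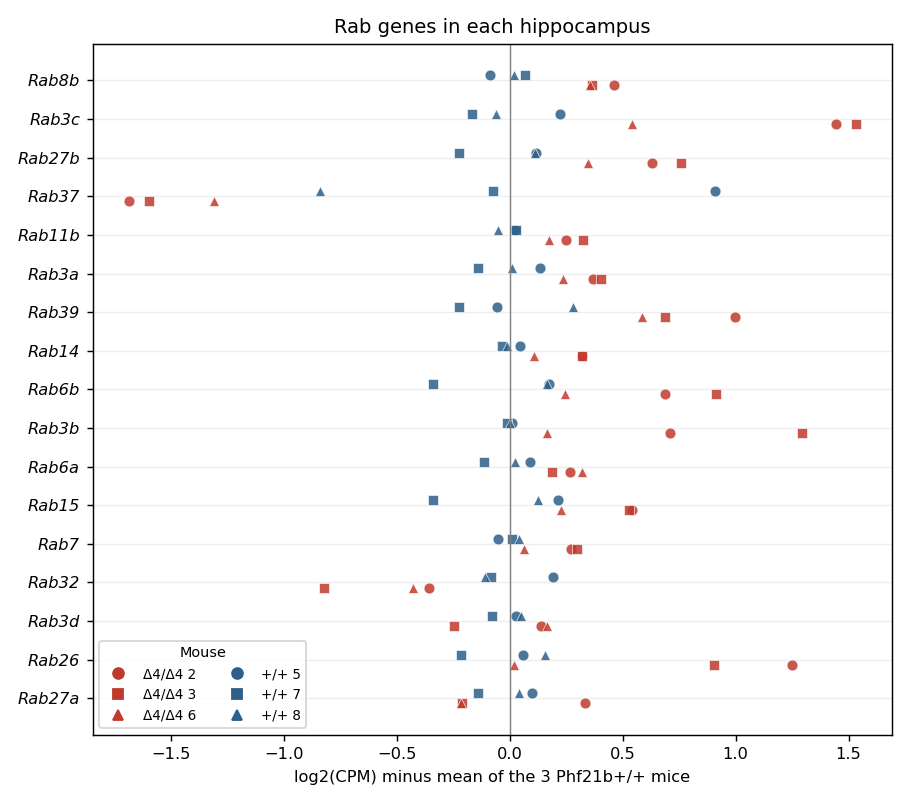
Log2 CPM of 17 *Rab* genes in each mouse, minus the mean of the 3 Phf21b+/+ mice; red marks are Phf21bΔ4/Δ4 and blue marks Phf21b+/+ mice, and each shape is 1 mouse. The triangle of Phf21bΔ4/Δ4 mouse 6 lies nearer to the blue marks than the other red marks for *Rab3c*, *Rab3b*, *Rab6b*, and *Rab26*, and lies farthest from them for *Rab6a*.

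The exocytosis group summed to 1580, 1670, and 1050 CPM in Phf21bΔ4/Δ4 mice and to 918, 734, and 809 CPM in Phf21b+/+ mice. *Rab3c* alone gave 944, 1004, and 505 CPM of this sum against 405, 309.3, and 333 CPM. *Rab3d*, *Rab26*, and *Rab27a* overlapped between the genotypes and *Rab37* was lower, so the sum does not describe each gene of the group. The summed CA1 and interneuron markers were also higher in each Phf21bΔ4/Δ4 mouse, and the summed dentate granule cell markers were lowest in mice 2 and 3, which held the highest exocytosis values. The part of these cell types in the *Rab* values was not tested. The plot of summed levels sets the *Rab* groups beside the marker lists.

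**Figure D3:**
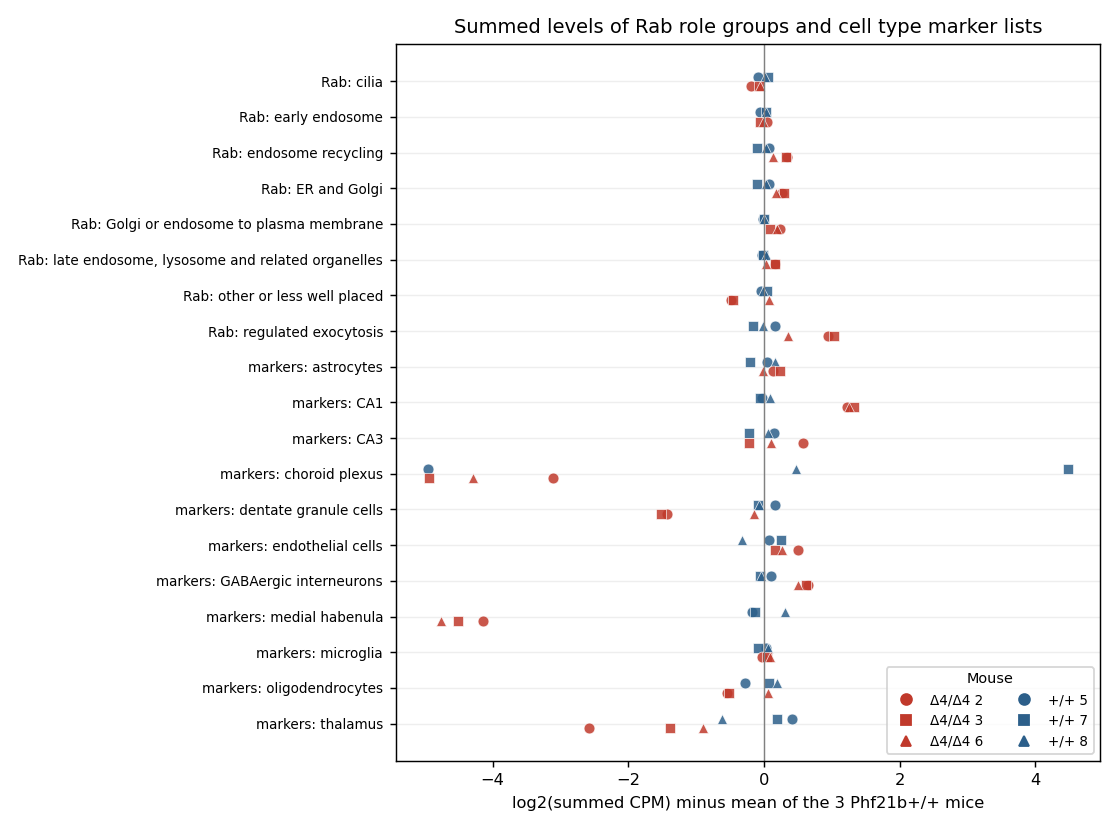
Summed CPM of 8 *Rab* role groups and 11 marker lists in each mouse, on a log2 scale, minus the mean of the 3 Phf21b+/+ mice; red marks are Phf21bΔ4/Δ4 and blue marks Phf21b+/+ mice. The *Rab* groups spread over a narrower range than the markers of medial habenula, thalamus, choroid plexus, CA1, and dentate granule cells.

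The make-up of the *Rab3* family was compared on levels per kb of exon. *Rab3c* made up 26.7%, 27.0%, and 17.8% of the summed *Rab3* level in Phf21bΔ4/Δ4 mice and 15.8%, 14.6%, and 14.3% in Phf21b+/+ mice. *Rab3a* made up 67.6%, 65.8%, and 76.8% against 78.9%, 79.1%, and 79.8%, so that its share was lower while its level was higher. The summed level was 293, 309.0, and 236 CPM per kb against 213, 176, and 194 CPM per kb. The *Rab3b* share overlapped between the genotypes, and the *Rab3c* share of Phf21bΔ4/Δ4 mouse 6 lay nearer to the Phf21b+/+ mice than to mice 2 and 3. The *Rab3c*, *Rab3a*, and *Rab3d* shares and the sum did not overlap between the genotypes. The *Rab3d* share was 1.288%, 0.937%, and 1.637% against 1.643%, 1.847%, and 1.838%. For each of these an exact permutation test gives the smallest p it can reach with 3 against 3 mice, 0.1 (two-sided). Shares of 1 sum are not independent, and the levels of 31.0% of all genes also did not overlap.

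**Figure D4:**
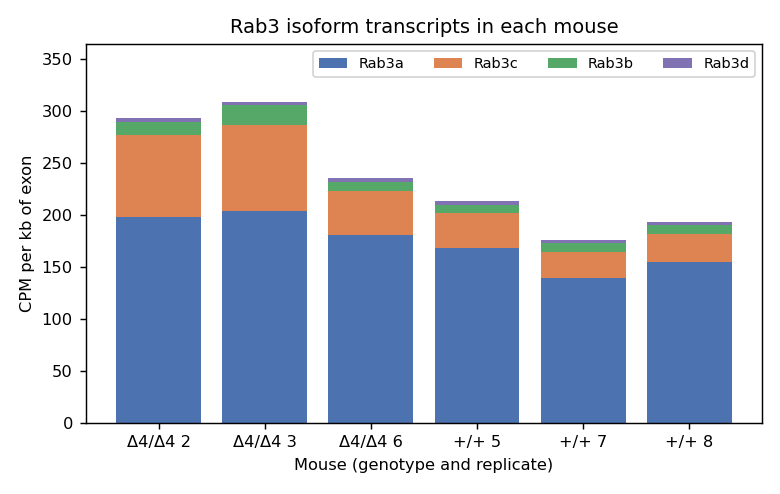
Levels of the 4 *Rab3* genes in CPM per kb of exon, stacked for each mouse (Phf21bΔ4/Δ4 mice 2, 3, and 6 and Phf21b+/+ mice 5, 7, and 8). The total runs from 176 in Phf21b+/+ mouse 7 to 309.0 in Phf21bΔ4/Δ4 mouse 3, and the *Rab3c* layer is thickest in Phf21bΔ4/Δ4 mice 2 and 3.

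Because the study concerns the transcription factor CREB along with PHF21B, the promoters of the members were searched for its recognition sequence, the cAMP response element. RefSeq windows of the 250 bases before the start of transcription (GRCm38.p6) were found for 43 of the 53 members. The full element, TGACGTCA, was present in 1 of the 43 (2.3%), against 3.0% of 11292 genes of the table, and the core TGACG on either strand, which lies within the full element, in 22 of the 43 (51.2%), against 29.8%. A match describes the letters only and is not a binding site. The windows follow RefSeq starts, which can differ from those of the GENCODE annotation used for gene positions. The *Rab3c* window lies inside the gene span given above, so it does not show the bases before the GENCODE start. The *Rab3a* and *Rab3b* windows shown include 24 and 7 bases of their own GENCODE exons. The windows of the *Rab3* genes that did not overlap between the genotypes are shown, each 5′ to 3′ on the strand of the gene, with the core in capitals (CGTCA where it lies on the other strand), followed by that of *Rab5a*, the only member with the full element, which starts at position -28 from the start of transcription. They lie at chr8:70754453-70754702 (+) for the upstream of 2 *Rab3a* starts, chr4:108878820-108879069 (+) for *Rab3b*, chr13:110280207-110280456 (-) for *Rab3c*, and chr17:53478984-53479233 (+) for *Rab5a*.
Rab3a: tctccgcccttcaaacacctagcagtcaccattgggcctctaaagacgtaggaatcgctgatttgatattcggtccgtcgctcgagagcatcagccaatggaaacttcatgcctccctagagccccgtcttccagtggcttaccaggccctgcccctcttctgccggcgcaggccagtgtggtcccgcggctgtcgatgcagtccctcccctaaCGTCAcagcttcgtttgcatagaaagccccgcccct
Rab3b: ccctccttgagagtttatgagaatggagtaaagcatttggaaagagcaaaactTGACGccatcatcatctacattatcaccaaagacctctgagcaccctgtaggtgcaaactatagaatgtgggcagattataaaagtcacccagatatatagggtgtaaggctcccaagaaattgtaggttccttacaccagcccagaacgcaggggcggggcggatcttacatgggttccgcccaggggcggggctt
Rab3c: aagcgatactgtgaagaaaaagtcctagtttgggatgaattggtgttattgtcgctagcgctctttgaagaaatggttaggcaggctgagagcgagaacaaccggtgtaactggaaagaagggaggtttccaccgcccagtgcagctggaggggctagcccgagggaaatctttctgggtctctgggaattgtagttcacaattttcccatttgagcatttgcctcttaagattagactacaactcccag
Rab5a: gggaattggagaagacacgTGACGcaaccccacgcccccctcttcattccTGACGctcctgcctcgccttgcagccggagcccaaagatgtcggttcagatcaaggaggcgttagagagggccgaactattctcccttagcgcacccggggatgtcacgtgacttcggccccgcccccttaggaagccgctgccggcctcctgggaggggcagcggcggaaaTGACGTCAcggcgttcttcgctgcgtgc
*Rab3a* and *Rab3b* each had 1 match of the core in the window shown and *Rab3c* had none. The window of the other *Rab3a* start had 0 matches. The part of these matches in the *Rab* values was not tested. *Rab5a*, an organizer of early endosomes, was at 126, 115, and 113 CPM against 103, 111, and 106 CPM, without overlap and with an FDR of 0.264 (log2 fold change 0.15, SE 0.075).

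The group listed under transport from the Golgi or endosomes to the plasma membrane held 5 genes, with a median log2 fold change of 0.17. *Rab8b*, which acts in transport to the cell surface and at the base of cilia, came nearest to the threshold of all members. The gene lies on the minus strand at chr9:66843664-66919687 of GRCm38. It was at 103, 96.4, and 95.7 CPM in Phf21bΔ4/Δ4 mice and at 70.4, 78.4, and 75.8 CPM in Phf21b+/+ mice. The groups were far apart relative to their spread (log2 fold change 0.40, SE 0.074), the fold change was 1.315, and the FDR was 0.101. Its FDR was below 0.1 and its fold change above 1.3 in 5 of 13 alternative settings and in 1 of the 6 fits without a mouse, and the FDR ranged from 0.011 to 0.17 over the former and from 0.035 to 0.34 over the latter. *Rab8b* made up 71.1%, 69.7%, and 70.2% of the summed *Rab8a* and *Rab8b* level per kb in Phf21bΔ4/Δ4 mice and 63.2%, 63.4%, and 63.3% in Phf21b+/+ mice. *Rab8a* itself overlapped, at 41.5, 41.5, and 40.1 CPM against 40.5, 44.7, and 43.5 CPM. The remaining genes of this group were *Rab10*, *Rab12*, and *Rab13*, with log2 fold changes of 0.17, 0.10, and 0.19. For *Rab10* (FDR 0.259) and *Rab12* (FDR 0.365) all Phf21bΔ4/Δ4 mice lay above all Phf21b+/+ mice, as they did for 15.0% of all genes.

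Endosome recycling, by which receptors return to the cell surface, was covered by 6 genes. All 6 had a positive log2 fold change, between 0.11 and 0.43, as did 47.6% of all genes. At an unadjusted p under 0.05, 3 were higher (50%, against 11.6% of all genes). *Rab11b*, a Rab of the recycling endosome, was at 61.2, 64.4, and 58.0 CPM against 52.3, 52.5, and 49.6 CPM (log2 fold change 0.25, SE 0.074, FDR 0.151). *Rab14*, which acts between endosomes and Golgi, was at 225, 225, and 194 CPM against 186, 176, and 179 CPM (log2 fold change 0.25, SE 0.085, FDR 0.167), and its log2 fold change was 0.10 after quantile normalization and 0.12 after correction for exon length, which was chosen after seeing the data. *Rab15*, a neuronal Rab of endocytic recycling, was at 269, 265, and 215 CPM against 214, 146, and 201 CPM, where Phf21bΔ4/Δ4 mouse 6 and Phf21b+/+ mouse 5 were nearly level (log2 fold change 0.43, SE 0.167, FDR 0.191). It was 0.26 without Phf21b+/+ mouse 7 and 0.28 after quantile normalization. The share of *Rab11b* in the summed *Rab11a* and *Rab11b* level overlapped between the genotypes.

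Among 12 genes of the endoplasmic reticulum and Golgi, 3 were higher (25%, against 11.6% of all genes) and none was lower at an unadjusted p under 0.05. The total was near the 23.6% of all genes, and the median log2 fold change was 0.14. *Rab6a* and *Rab6b* encode Golgi Rabs, of which *Rab6b* is the neuronal form. *Rab6b* was at 629, 735, and 462 CPM in Phf21bΔ4/Δ4 mice and at 440.5, 308.5, and 437 CPM in Phf21b+/+ mice (log2 fold change 0.61, SE 0.213, FDR 0.169, and 0.41 after quantile normalization). Mouse 6 was only slightly above Phf21b+/+ mice 5 and 8. *Rab6a* was at 625, 591, and 648 CPM against 553, 479.7, and 528 CPM (log2 fold change 0.26, SE 0.093, FDR 0.177), but after quantile normalization its log2 fold change was -0.002, so its direction depended on the scaling. *Mrpl48* overlaps 19.0% of the *Rab6a* exons on the opposite strand. *Rab39*, a close relative of the intellectual disability gene *Rab39b*, had the lowest mean level per kb of all members in Phf21b+/+ mice and was at 2.66, 2.14, and 2.001 CPM against 1.28, 1.14, and 1.62 CPM (log2 fold change 0.76, SE 0.252, FDR 0.166, and 0.48 with log2(CPM + 1)), while *Rab39b* overlapped between the genotypes.

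Late endosomes, lysosomes, and related organelles were covered by 8 genes with a median log2 fold change of 0.06. *Rab7*, the main Rab of late endosomes and lysosomes, was at 145, 147, and 125 CPM against 115, 120.3, and 123 CPM (log2 fold change 0.21, SE 0.086, FDR 0.201, and 0.10 after quantile normalization). The gap between Phf21bΔ4/Δ4 mouse 6 and the highest Phf21b+/+ mouse was small. *Rab32*, known for its place on lysosome-related organelles and mitochondria, was 1 of the 2 members in which all Phf21bΔ4/Δ4 mice were lowest, at 2.24, 1.62, and 2.13 CPM against 3.27, 2.701, and 2.65 CPM (log2 fold change -0.53, SE 0.221, FDR 0.208, and -0.21 after quantile normalization). In the early endosome group of 6 genes (median 0.02), the cilia group of 3 (median -0.13), and the 5 genes that are less well placed (median -0.02), none passed an unadjusted p under 0.05. *Rab20*, in the last of these, had the lowest log2 fold change of all members (-2.09, SE 1.028). It was at 0.464, 0.191, and 0.826 CPM in Phf21bΔ4/Δ4 mice and at 0.569, 8.02, and 1.26 CPM in Phf21b+/+ mice. Phf21b+/+ mouse 7 was by far the highest and mouse 8 was also above each Phf21bΔ4/Δ4 mouse, while mouse 5 lay within their range. Choroid plexus markers were at 15500 CPM in mouse 7, 954 CPM in mouse 8, and 22.2 CPM in mouse 5, and their part in the result was not tested.

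Phf21bΔ4/Δ4 mouse 6 was the nearest of the 3 to the Phf21b+/+ mean in 32 of 53 *Rab* genes (60.4%) and in 52.0% of all genes. In 6 members (11.3%, against 8.44% of all genes) mice 2 and 3 were above the whole Phf21b+/+ range while mouse 6 was inside it, and in 4 (7.55%, against 8.75%) they were below it in the same way. Without mouse 6, limma called 11 of 53 *Rab* genes (20.8%), against 19.5% of all genes, so the members' share stayed near the background. Without any other single mouse it called no member, against 0.0622% (without Phf21b+/+ mouse 8) to 0.311% (without Phf21bΔ4/Δ4 mouse 3) of all genes. The 11 were *Rab3c*, *Rab6b*, *Rab3a*, *Rab15*, *Rab8b*, *Rab27b*, *Rab3b*, and *Rab26*, which were higher, and *Rab40b*, *Rab34*, and *Rab37*, which were lower. In that fit *Rab3c* had a log2 fold change of 1.49 (FDR 0.0084), and *Rab40b*, whose product belongs to a ubiquitin ligase, had a log2 fold change of -0.86 (FDR 0.015). *Rab40b* was at 31.8 and 26.0 CPM in Phf21bΔ4/Δ4 mice 2 and 3 and at 58.9 CPM in mouse 6, above the 50.6 to 53.8 CPM of the Phf21b+/+ mice. *Rab34*, which acts in the formation of cilia, was at 7.13 and 6.57 CPM in mice 2 and 3, at 10.9 CPM in mouse 6, and at 10.5 to 10.6 CPM in Phf21b+/+ mice. Mice 2 and 3 were also those with dentate granule cell markers at 278 and 262 CPM, against 679 CPM in mouse 6, and the part of these markers was not tested. With weights for each mouse estimated by limma, 11 of 53 were called as well (20.8%), against 24.5% of all genes. Of these, 10 were also among the 11 without mouse 6. The weights were 2.038, 0.554, and 0.343 for Phf21bΔ4/Δ4 mice 2, 3, and 6. For Phf21b+/+ mice 5, 7, and 8 they were 1.007, 0.553, and 4.632, so the weighted fit leaned most on Phf21b+/+ mouse 8.

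The levels of the members spanned a wide range. Per kb of exon and in Phf21b+/+ mice, *Rab3a* (154 ± 14.6 CPM per kb), *Rab2a* (143 ± 4.03), and *Rab6a* (139.6 ± 9.98) were the highest and overlapped in order (SD, n = 3). *Rab2a* encodes a Rab of transport between the endoplasmic reticulum and Golgi. *Rab6b* followed at 78.6 ± 14.97 CPM per kb and *Rab5c*, an early endosome Rab, at 59.8 ± 1.22 CPM per kb, each below the range of the gene before it. The lowest in Phf21b+/+ mice were *Rab42* (1.20 ± 0.297), *Rab38* (1.12 ± 0.0947), *Rab37* (1.01 ± 0.604), *Rab7b* (0.738 ± 0.0329), and *Rab39* (0.453 ± 0.0827). Of the 52 pairs of neighbours in this order, 34 had overlapping ranges over the 3 mice. *Rab3c* was in place 14 in Phf21b+/+ mice (29.0 ± 4.15 CPM per kb) and in place 5 in Phf21bΔ4/Δ4 mice (67.9 ± 22.6 CPM per kb), whereas *Rab3a* was the highest in both. Measured against the longest transcript in place of all exons, *Rab3a* stood at 220.3 ± 20.9 CPM per kb in Phf21b+/+ mice and was still the highest. The 5 members with the most reads (*Rab3c*, *Rab6a*, *Rab6b*, *Rab3a*, and *Rab2a*) made up 47.5%, 49.0%, and 43.6% of all *Rab* CPM in Phf21bΔ4/Δ4 mice and 42.01%, 37.8%, and 40.1% in Phf21b+/+ mice.

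**Figure D5:**
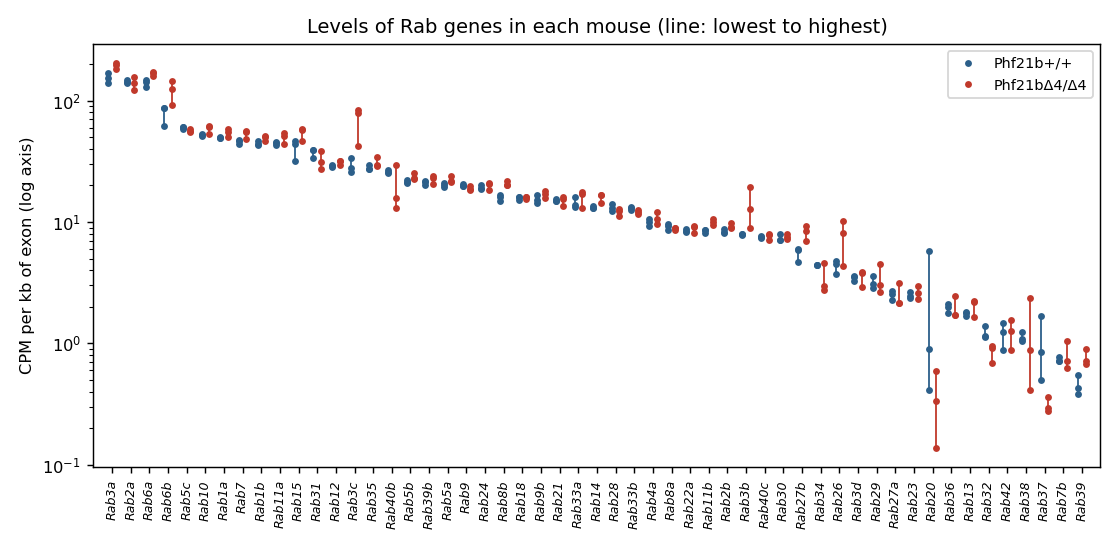
Level of each *Rab* gene in CPM per kb of exon on a log axis, in the order of the Phf21b+/+ mean; each point is 1 mouse, blue for Phf21b+/+ and red for Phf21bΔ4/Δ4, and a line joins the lowest and highest of 3 mice. Levels run from 154 CPM per kb for *Rab3a* to 0.453 for *Rab39* in the Phf21b+/+ mean, and *Rab20* and *Rab37* show the widest blue lines.

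The partners of the Rab proteins showed no differentially expressed gene either when all 6 mice were used. Of 138 listed regulators, effectors, and related GTPases, 131 were measured, and limma called 0 of them (voom also 0 at the same thresholds), while 31 (23.7%) had an unadjusted p under 0.05, against 23.6% of all genes. Of these 31, 20 were higher and 11 were lower in Phf21bΔ4/Δ4 mice. Over all genes, 11.6% were higher and 12% lower at this p. Without Phf21bΔ4/Δ4 mouse 6, 21 of the 131 (16.0%) were called, against 19.5% of all genes. Among 51 effectors, 6 were higher (11.8%, near the share of all genes) and 4 lower (7.84%) at an unadjusted p under 0.05. *Gcc2*, a Golgi tether that binds Rab6, was at 164, 176, and 164 CPM against 143, 129.8, and 134 CPM (log2 fold change 0.31, SE 0.073, FDR 0.133, and 0.19 after quantile normalization), and *Gripap1*, a Rab4 effector linked to AMPA receptor recycling, had a log2 fold change of 0.35 (SE 0.084, FDR 0.133).

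Among 31 exchange factors, 6 were higher (19.4%, against 11.6% of all genes) and 4 lower (12.9%, against 12%) at an unadjusted p under 0.05. *Dennd1b*, an exchange factor for Rab35, was at 50.9, 55.5, and 65.7 CPM in Phf21bΔ4/Δ4 mice and at 84.99, 76.9, and 95.0 CPM in Phf21b+/+ mice (log2 fold change -0.58, SE 0.123, FDR 0.121). *Rin2*, an exchange factor for Rab5, was at 28.5, 29.7, and 41.3 CPM against 44.5, 53.7, and 49.6 CPM (log2 fold change -0.59, SE 0.158, FDR 0.142). Among 36 GTPase-activating proteins, 7 were higher (19.4%) and 2 lower (5.56%). *Rab3gap2*, the noncatalytic subunit of the complex that acts on Rab3, was at 167, 155, and 128 CPM against 115, 101, and 106 CPM (log2 fold change 0.47, SE 0.115, FDR 0.133), and *Tbc1d25*, which acts on Rab33b in autophagy, had a log2 fold change of 0.48 (SE 0.144, FDR 0.152). Of the 8 listed genes that lipidate Rab proteins, move them on and off membranes, or otherwise bind them, 1 was higher and 1 was lower. These were 12.5% each, against 11.6% and 12% of all genes. The higher gene was *Rabif* (log2 fold change 0.26, SE 0.10, FDR 0.193), and the lower was *Rabac1* (-0.19, SE 0.075, FDR 0.198, and -0.07 after correction for exon length). The 5 Rab-like GTPases had none; *Ift27*, a subunit of intraflagellar transport, stood at -0.16 (SE 0.121, and -0.03 after quantile normalization) and *Rabl6* at 0.09 (SE 0.074), with a sign that turned to -0.02 after quantile normalization.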

How the data were processed

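Total RNA libraries were made from hippocampal tissue with a ribosomal RNA depletion kit, and each library is 1 mouse. Per the labels and the study's methods, the authors trimmed reads with Trimmomatic 0.39, mapped them to GRCm38 with STAR 2.7.3a, counted them with featureCounts (Subread 1.6.4), and deposited log2 CPM values, scaled with edgeR to the effective library size, of genes that reached a CPM of 1 in 2 or more samples. The use of strand in counting is not given in the sources used here, so exons shared with an antisense gene cannot be assigned. Low values rose in steps of 1 read, and 100.0% came out as whole reads within 0.1, with a prior count of 0.1; these reads gave CPM, depth, and the voom test, which called 131 of the 14477 genes.

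The deposited log2 values were compared between genotypes with limma 3.58.1 in R 4.3.3 (lmFit and eBayes with a trend), without covariates, for all genes, and p-values were adjusted by Benjamini-Hochberg over them. The thresholds are those of the study, whose own test needs counts. The labels do not say which mice were littermates, and p-values measure the spread among 3 mice of each genotype. Levels per kb used the union of exons in GENCODE M21 (GRCm38), matched for 53 members and 98.8% of all genes; the authors counted on another release. Promoters came from RefSeq. Genes named are all members called, further members by lowest p to a total of 14, the exocytosis group, the 5 highest and 5 lowest levels, and from each partner list the called genes or the 2 with the lowest p; *Phf21b* was added as the targeted gene, and *Rab5a*, *Rab8a*, *Rab10*, *Rab12*, *Rab13*, *Rab20*, *Rab34*, *Rab39b*, and *Rab40b* were chosen after their values were seen. The members and all gene lists were chosen with earlier results of these data known.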

Additional observations from a re-analysis of the deposited data

How the results depend on the processing

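The count of *Rab* genes called by limma stayed 0 with a prior variance shared by all genes, robust fitting, a mean log2 CPM of at least 1, an FDR under 0.05, no fold threshold, quantile normalization, voom, and correction for exon length. In these settings 0.173% (FDR under 0.05) to 1.35% (correction for exon length) of all genes were called. It was 1 (*Rab8b*, higher; 1.89% of the members) with log2(CPM + 1), log2(CPM + 0.1), centring on the median, and correction for GC content. In these settings 1.33%, 1.33%, 1.37%, and 1.38% of all genes were called, so the members' share was near the background. It was 11 (8 higher, 3 lower; 20.8%, against 24.5% of all genes) with weights for each mouse. With these weights 27 members (22 higher, 5 lower; 50.9%, against 44% of all genes) had an unadjusted p under 0.05. They also gave 19 called partner genes (11 higher, 8 lower; 14.5%, against 24.5% of all genes). The corrections for GC content and exon length were chosen after seeing the data. In place of 2 members, 1 was lower at an unadjusted p under 0.05 with the mean log2 CPM filter, with median centring, and with correction for exon length. Quantile normalization left 9 members at an unadjusted p under 0.05 (7 higher; 17.0%, below the 20.9% of all genes) and 11 without overlap (8 higher; 20.8%, below the 27.8% of all genes). The count of partner genes was 1 (lower; 0.763%) with log2(CPM + 1) and with correction for exon length, against 1.33% and 1.35% of all genes. With the longest transcript in place of all exons, *Rab3a* was at 220.3 CPM per kb. The cause of these changes was not tested.

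Leaving out each mouse gave 0 to 11 *Rab* genes called (0 to 8 higher, 0 to 3 lower), with 11 only without Phf21bΔ4/Δ4 mouse 6, and 0 to 21 partner genes (0 to 16 higher, 0 to 5 lower), with 21 (16.0%, against 19.5% of all genes) without that mouse. Members at an unadjusted p under 0.05 numbered 6 without Phf21bΔ4/Δ4 mouse 2 (11.3%, against 14.4% of all genes) or Phf21b+/+ mouse 7 (11.3%, against 13.2%). They numbered 8 without Phf21b+/+ mouse 8 (15.1%, against 13.9%). The highest count, 18 without Phf21bΔ4/Δ4 mouse 6 (34%, against 34.1%), was at the background. Over all these fits 5 to 14 were higher and 1 to 4 lower. The share of all genes in each direction was not computed for these fits, so these counts cannot be set against a background. Members without overlap numbered 21 (39.6%) without Phf21b+/+ mouse 7 or 8, against 37.2% and 36.9% of all genes. The highest count was 35 (66.0%, against 55.3%) without Phf21bΔ4/Δ4 mouse 6. From 19 (35.8%, against 17.6% without Phf21b+/+ mouse 7 and 18.1% without mouse 8) to 27 (50.9%, against 26.8%) were higher, and 2 to 8 were lower. Without Phf21bΔ4/Δ4 mouse 6 (15.1%, against 28.5%) or Phf21b+/+ mouse 5 (15.1%, against 24.3%), 8 were lower. Without Phf21bΔ4/Δ4 mouse 2, 5 were lower (9.43%, against 19.5%), and without mouse 3, 4 were lower (7.55%, against 20.1%). The sign of *Rab27a* turned positive with weights (0.133), quantile normalization (0.134), median centring (0.018), and without Phf21bΔ4/Δ4 mouse 3 (0.058) or 6 (0.061) or Phf21b+/+ mouse 5 (0.018), over a range without each mouse of -0.214 to 0.061, that of *Rab3d* turned negative without Phf21bΔ4/Δ4 mouse 2 (-0.04) or 6 (-0.054) or Phf21b+/+ mouse 7 (-0.02), over a range of -0.054 to 0.153, and quantile normalization gave -0.002 for *Rab6a* and -0.022 for *Rabl6*. No paired analysis was possible because the genotypes share no replicate numbers. With 3 mice per genotype the exact permutation p of a single gene cannot fall below 0.1. *Rab20*, *Rab38*, and *Rab42* rest on 4 to 190 reads per mouse, *Rab39* on 27 to 63, and *Rab32* on 34 to 69.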
